A study of Canis lupus familiaris with 6 samples.

Results

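The genes described here prepare peptides for MHC class I molecules: NLRC5, B2M, TAP1, TAP2, TAPBP, PSMB8, PSMB9, PSMB10, PSME1 and PSME2. Their probes were chosen by the gene name that the array files give, which found 18 probes for 9 of the 10 genes. NLRC5 carried no gene name, and its 1 probe was found by the description of its transcript after its values had been seen. A probe described as PSME2 by similarity was not added, and its values are given at the end. The 19 probes were taken out of 43603 on the array, and all 19 passed the filter on dim probes.

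The cells were MDCK, an epithelial line from dog kidney, in which tetracycline switches on GFP-tagged RasV12, a constantly active Ras (MDCK-pTR GFP-RasV12). They were kept as the only cells of the dish (alone, 3 arrays) or mixed with a majority of normal MDCK cells (mixed, 3 arrays), and all 6 samples had 24 h of tetracycline before GFP-positive cells were sorted. Both groups therefore carry induced RasV12, and no array holds normal MDCK cells alone or RasV12 cells without tetracycline. The label of mixed replicate 2 gives 100 normal cells for each RasV12 cell, whereas those of mixed replicates 1 and 3 give 10, as does the protocol. The extraction text names cells with a stabilised β-catenin (mCherry-β-catenin Δ131), which neither the titles nor the sources of these 6 samples mention. The paper also lists this series without β-catenin Δ131, as MDCK-pTR GFP-RasV12 cells mixed with MDCK cells or kept alone. Nothing in the labels says that the 3 samples of a group came from separate cultures, so p-values measure the spread between these samples, which may be technical.

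In most cells a proteasome cuts proteins into peptides, TAP1 and TAP2 together pump them into the endoplasmic reticulum, and tapasin (TAPBP) helps load them onto a heavy chain paired with β2-microglobulin (B2M). PSMB8, PSMB9 and PSMB10 are catalytic subunits that replace PSMB5, PSMB6 and PSMB7 in the immunoproteasome, and PSME1 and PSME2 form a cap that opens the proteasome. NLRC5 is a transcriptional coactivator of class I genes and of several of these partners, and interferons are its best-known inducers.

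Each probe is a DNA strand of 60 bases. The sequences below show what the array measured for NLRC5, for the 3 inducible catalytic subunits and for a chain of the peptide pump, whether or not the probe was called, and how closely 2 probes of PSMB9 repeat each other. All come from the array files, 5′ to 3′, with positions on canFam3. The NLRC5 probe lies at chr2:59279828-59279887 on the minus strand, and only its bases 20 to 49 are given, with the polyadenylation signal motif AATAAA in capitals. The PSMB8 probe lies at chr12:2419692-2419751 (minus strand). PSMB9 probe 1 lies at chr12:2437889-2437948 (plus strand), and its capitals mark the 48 bases that it shares with PSMB9 probe 2. The PSMB10 probe covers 181 bases of the genome (chr5:81563277-81563457, plus strand) and so crosses a splice junction. TAP2 probe 1 lies at chr12:2408302-2408361 (minus strand).
NLRC5: ccaaattagaccAATAAAtgtggatcgtgt
PSMB8: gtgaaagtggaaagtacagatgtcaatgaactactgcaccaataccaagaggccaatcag
PSMB9 probe 1: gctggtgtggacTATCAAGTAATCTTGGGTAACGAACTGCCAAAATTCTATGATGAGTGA
PSMB10: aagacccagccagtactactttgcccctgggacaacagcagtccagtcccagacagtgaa
TAP2 probe 1: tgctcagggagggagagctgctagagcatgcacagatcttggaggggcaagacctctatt
Read from its first base, PSMB9 probe 1 runs without a stop until its last triplet, the stop TGA. The PSMB8 probe has 1 reading frame free of stops, which also starts at its first base.

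Several of the genes are neighbours. In the RefSeq gene order of a later dog assembly (UU_Cfam_GSD_1.0), TAP2, PSMB8, TAP1 and PSMB9 follow one another on chromosome 12, between the class II genes DLA-DOB and DLA-DMB. Their 7 probes span 30.2 kb of canFam3. TAPBP is on the same chromosome between RGL2 and ZBTB22, and PSME1 and PSME2 are on chromosome 8 with EMC9 between them. PSMB10 is on chromosome 5, NLRC5 on chromosome 2 and B2M on chromosome 30.

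The comparison asked how expression in sorted GFP-positive cells differed between mixed culture and culture alone. It showed more NLRC5, TAP1, PSMB8 and PSMB9 RNA in GFP-positive cells from mixed culture, with 1 of the 2 PSMB9 probes called. The mixed arrays also lay above the alone arrays on TAP2, PSMB10 and TAPBP probe 2, which were not called. The B2M probes at the B2M gene and the probes of the PSME1 and PSME2 cap overlapped between the groups. Normal cells carried through the sort and a change in the RasV12 cells cannot be told apart here. With limma and Benjamini-Hochberg adjustment over 26535 probes, 5 of the 19 probes passed an adjusted p of 0.05, where 11.2% of all tested probes did. Of the 19, 4 were higher in mixed culture, where 5.50% of all were, and 1 was lower, where 5.72% of all were. The lower one is the B2M-named probe that does not lie at the B2M gene. The 4 higher include NLRC5, whose probe was taken in after its values had been seen. Among the 18 probes found by gene name, TAP1, PSMB8 and PSMB9 probe 1 were called higher. The counts describe the probes and do not test the set. The median log2 difference was 0.26 over the 19 probes and 0.00 over all tested probes. On 10 of the 19 probes every mixed array lay above every alone array, where 17.8% of all tested probes did the same. These 10 belong to NLRC5, TAP1, TAP2 (3 probes), TAPBP (probe 2), PSMB8, PSMB9 (2 overlapping probes) and PSMB10. Some of them therefore read the same transcript again. Slide and group cannot be told apart, since each group was hybridised on a slide of its own.

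**Figure D1:**
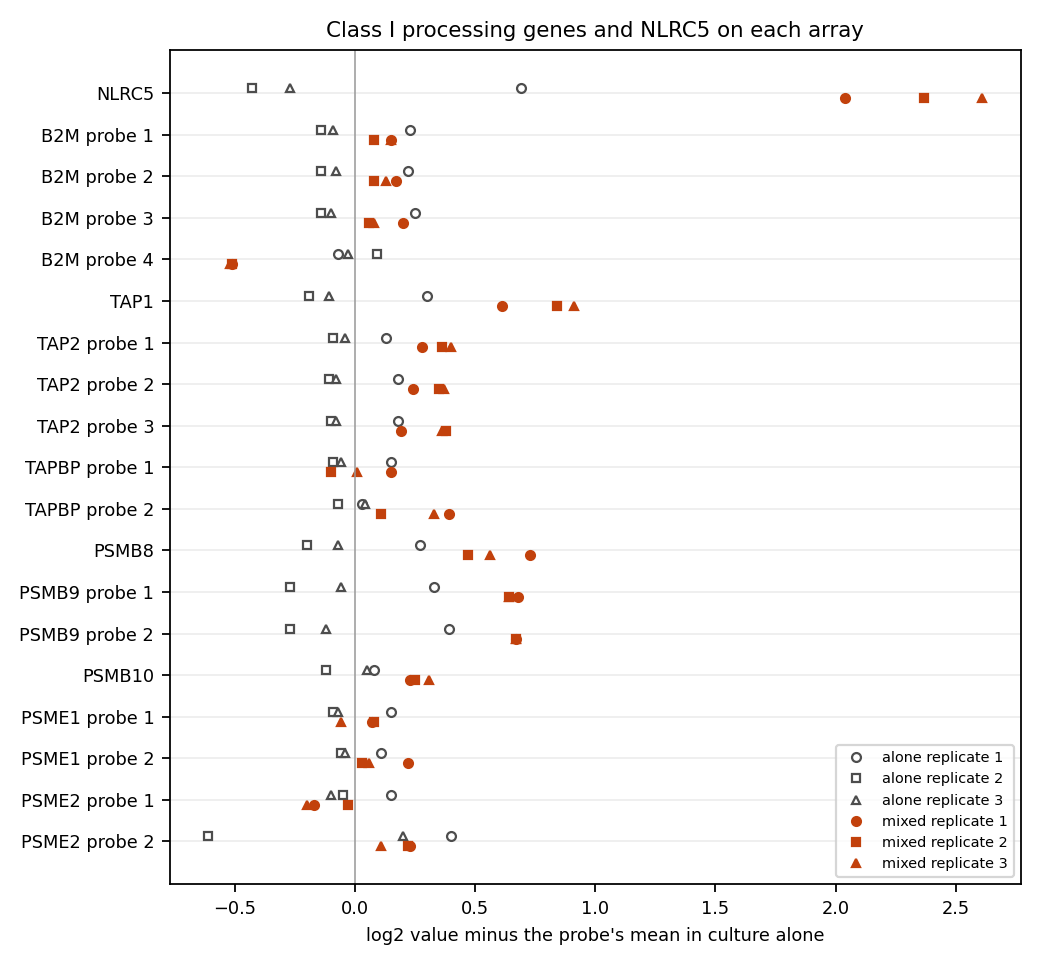
Each row is a probe and each point an array; the x axis is the log2 value scaled to the array's 75th percentile, minus the probe's mean over the 3 alone arrays. NLRC5 stands furthest to the right in mixed culture, and alone replicate 1 lies to the right of the other alone arrays on most rows.

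Array-wide measures bear on these values. The 75th percentile of intensity was 592 to 700 over the 6 arrays, 60.8% to 66.4% of probes were well above background, and no spot was saturated. Alone replicate 1 was higher than the mean of the other 2 alone arrays on 18 of the 19 probes, by 0.04 to 1.04 on the log2 scale. The share of all tested probes on which it was higher was not counted, so this is not a trait shown for these genes in particular. The median spike-in control, an RNA added in known amount, also lay higher on that array relative to its 75th percentile (1.87 on the log2 scale) than on alone replicates 2 and 3 (1.54 and 1.63), and was 1.71 to 1.85 on the mixed arrays. The part of that array in the results was not tested beyond leaving it out. Without it, 10 of the 19 probes were called higher instead of 4, and without any one of alone replicate 2, alone replicate 3, mixed replicate 2 or mixed replicate 3 none was.

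NLRC5, the coactivator, had intensities of 275, 143 and 147 in alone replicates 1, 2 and 3, and of 715, 923 and 994 in mixed replicates 1, 2 and 3. Every mixed array was above every alone array, and alone replicate 1 was the highest of the alone arrays. The log2 value, relative to each array's 75th percentile, was -1.86 ± 0.61 alone and 0.48 ± 0.29 mixed (SD, n = 3). Expression was 5.07-fold higher in mixed culture, with a 95% interval of 3.04 to 8.43 (log2 difference 2.34, SE 0.31, limma adjusted p = 0.0160). Spike-in scaling left it at 2.22 with the call kept, and it was the only one of the 19 probes called under that scaling. The call was lost without alone replicate 2 (limma adjusted p = 0.0683), alone replicate 3 (0.0779), mixed replicate 2 (0.0771) or mixed replicate 3 (0.0799), without a filter on dim probes (0.0694) and with the methods' t-test (0.0616), while the log2 difference stayed between 1.99 and 2.69 under all 14 alternatives.

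TAP1, one of the 2 chains of the peptide pump, had intensities of 11131, 8952 and 8743 alone and of 14119, 17028 and 16303 mixed. The groups did not overlap, and alone replicate 1 and mixed replicate 1 lay closest to each other. TAP1 was 1.73-fold higher in mixed culture (log2 difference 0.79, SE 0.15, 95% interval 0.43 to 1.15, limma adjusted p = 0.0279). With the replicate number as a block the limma adjusted p was 0.0528, and with spike-in scaling 0.0547. Leaving out alone replicate 2 gave 0.105, alone replicate 3 gave 0.108, mixed replicate 2 gave 0.106 and mixed replicate 3 gave 0.114, and the fit lacking the filter and the methods' t-test gave 0.0964 and 0.0899.

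TAP2, the other chain of the pump, had 3 probes, and none passed the threshold. TAP2 probe 1 read 1368, 1326 and 1263 alone and 1539, 1677 and 1572 mixed. All 3 mixed arrays lay above all 3 alone arrays on each of the 3 probes. The log2 differences were 0.34, 0.32 and 0.31 (SE 0.09, 0.10 and 0.10), with limma adjusted p of 0.0519, 0.0825 and 0.104. Probes 2 and 3 share 59 of their bases and so repeat one measurement. Without alone replicate 1 all 3 passed, with limma adjusted p of 0.0154, 0.0151 and 0.0256.

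The estimates for TAP1 and TAP2 had the same sign, and that for TAP1 was the larger. TAP1's 95% interval, 0.43 to 1.15, overlapped that of TAP2 probe 1, 0.14 to 0.55, and the difference between the 2 genes was not tested.

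PSMB8, an inducible catalytic subunit, had intensities of 345, 283 and 284 alone and of 485, 416 and 404 mixed. Every mixed array lay above every alone array, with mixed replicate 1 the highest. It was 1.50-fold higher in mixed culture (log2 difference 0.58, SE 0.14, 95% interval 0.25 to 0.92, limma adjusted p = 0.0448). This call sat close to the threshold, with limma adjusted p of 0.0578 after quantile normalization, 0.0763 with spike-in scaling, 0.135 without the filter and 0.121 with the methods' t-test. Leaving out alone replicate 1 gave 0.0104, alone replicate 2 gave 0.140, alone replicate 3 gave 0.150, mixed replicate 1 gave 0.106, mixed replicate 2 gave 0.111 and mixed replicate 3 gave 0.135.

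PSMB9, the inducible partner of PSMB6, was read by 2 probes that overlap by 48 bases. PSMB9 probe 1 gave 9846, 7322 and 7807 alone and 12826, 12823 and 11625 mixed, and PSMB9 probe 2 gave 9669, 6924 and 7098 alone and 12043, 12328 and 11235 mixed. On both probes the groups did not overlap, alone replicate 1 was the highest alone array, and the scaled mixed values had an SD of at most 0.03. The log2 differences were 0.66 (SE 0.15, limma adjusted p = 0.0426) and 0.67 (SE 0.17, limma adjusted p = 0.0503), so the 2 probes fell on either side of the threshold with nearly equal differences. For probe 1, the limma adjusted p on leaving out an array was 0.119 for alone replicate 2, 0.143 for alone replicate 3, 0.0991 for mixed replicate 1, 0.129 for mixed replicate 2 and 0.132 for mixed replicate 3. It was 0.0579 with spike-in scaling, 0.128 without the filter and 0.121 with the methods' t-test.

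PSMB10, the inducible partner of PSMB7, had intensities of 11382, 11207 and 11624 alone and of 12914, 13470 and 12740 mixed. The groups did not overlap, and the step was smaller than those of PSMB8 and PSMB9. The 95% intervals of these genes overlapped that of PSMB10, and the difference between the genes was not tested. The log2 difference was 0.26 (SE 0.08, 95% interval 0.07 to 0.45, limma adjusted p = 0.0840), and it passed the threshold without alone replicate 1 (0.0444) and after normexp background correction (0.0234).

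**Figure D2:**
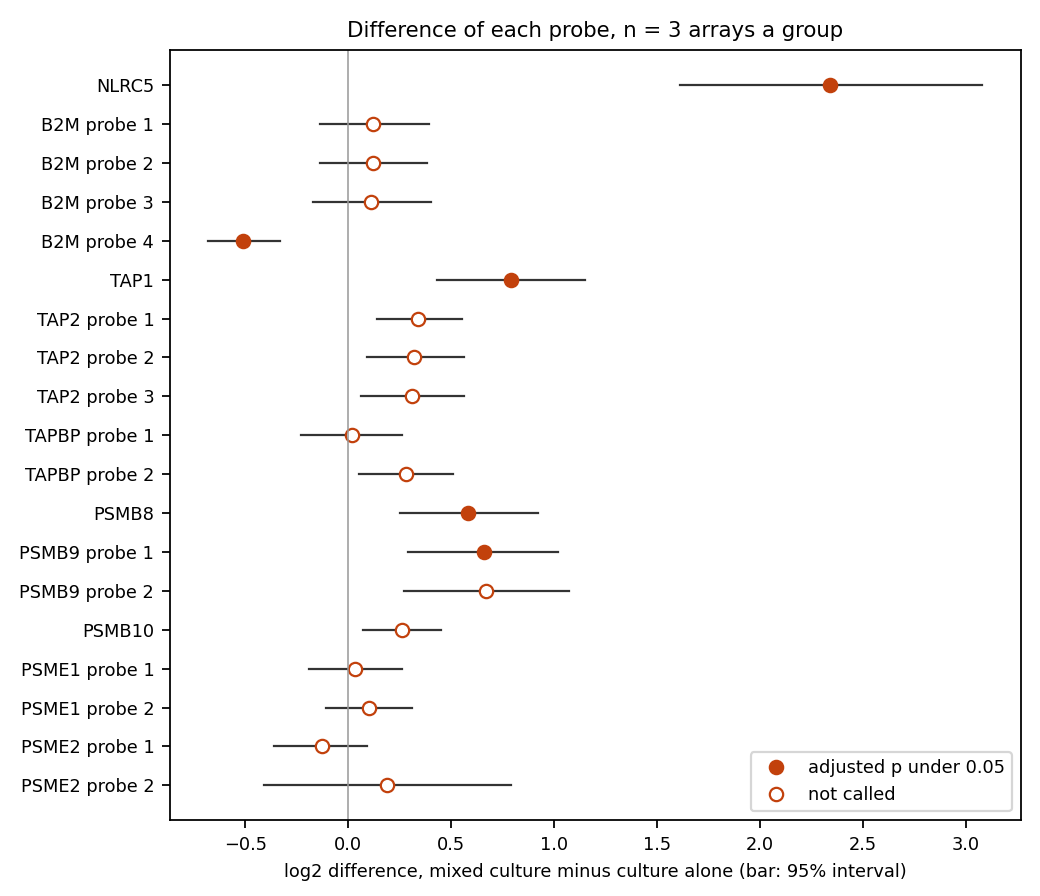
Each point is the log2 difference of a probe between mixed and alone culture, with its 95% interval from limma over 3 arrays a group; filled points passed an adjusted p of 0.05. NLRC5 (2.34) lies apart from the other probes, which run from -0.51 to 0.79.

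Because PSMB8, PSMB9 and PSMB10 take the places of constitutive subunits, each was set against its counterpart on the same array. The constitutive probes were not called: log2 differences were -0.16 for PSMB5, -0.07 for PSMB6 and -0.08 for PSMB7 (limma adjusted p of 0.189, 0.644 and 0.579). The log2 ratio of PSMB8 to PSMB5, minus its mean alone, was 0.17, -0.14 and -0.03 on the alone arrays and 0.91, 0.60 and 0.74 on the mixed arrays. That of PSMB9 to PSMB6 was 0.20, -0.19 and -0.01 alone and 0.72, 0.67 and 0.82 mixed. That of PSMB10 to PSMB7 was -0.06, -0.05 and 0.10 alone and 0.25, 0.34 and 0.42 mixed.

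All 3 ratios were higher on every mixed array than on every alone array. The mean differences were 0.75, 0.74 and 0.34 on the log2 scale, a 1.68-, 1.67- and 1.26-fold rise of the inducible over the constitutive subunit. Each gave p = 0.1 in a two-sided exact permutation test, which is the smallest p that 3 arrays against 3 allow. The array's scale cancels in these ratios, since both genes are read on the same array. With any one array left out, the differences stayed at 0.67 to 0.83, 0.64 to 0.84 and 0.30 to 0.39.

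**Figure D3:**
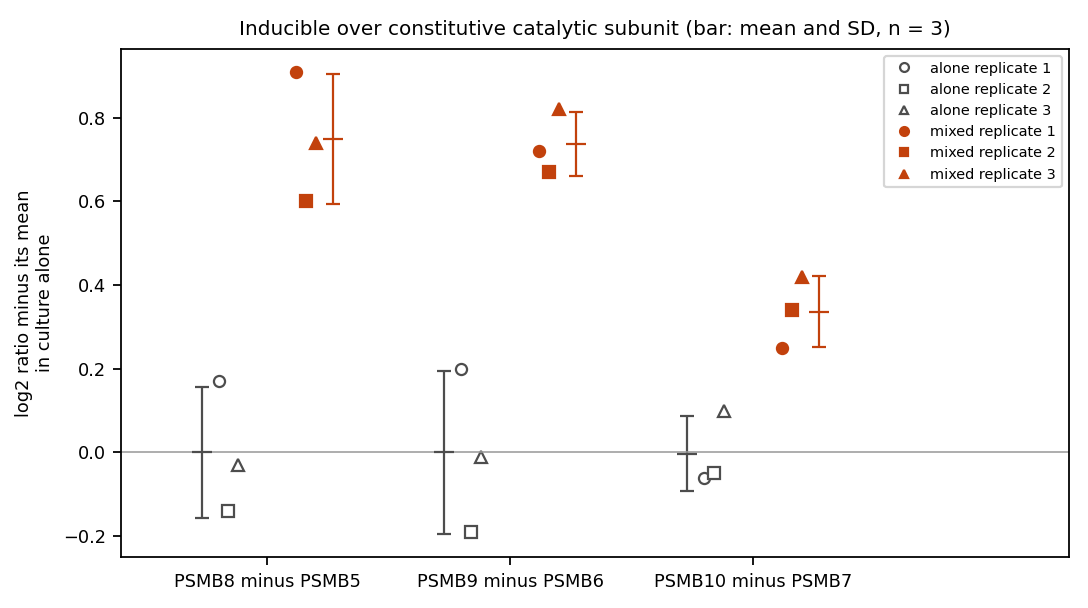
The y axis is the log2 ratio of an inducible to its constitutive catalytic subunit on each array, minus the mean of the 3 alone arrays; bars show the mean and SD of 3 arrays. The mixed arrays lie above the alone arrays for all 3 pairs, by the least for PSMB10 over PSMB7.

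PSME1 and PSME2, the 2 proteins of the proteasome cap, showed no difference past the threshold. PSME1 probe 1 read 14222, 13557 and 12696 alone and 13667, 14228 and 11728 mixed, and PSME1 probe 2 read 7494, 7536 and 7065 alone and 8241, 7440 and 6930 mixed. The groups overlapped on both, with log2 differences of 0.03 (95% interval -0.19 to 0.26) and 0.10 (-0.11 to 0.31). PSME2 probe 1 read 24745, 24324 and 21638 alone and 20152, 22850 and 18600 mixed (log2 difference -0.13, 95% interval -0.36 to 0.09).

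PSME2 probe 2 read 44074, 24692 and 39857 alone and 39714, 40767 and 34296 mixed. Alone replicate 2 was far below the other 5 arrays on that probe, and not on PSME2 probe 1. The log2 difference of probe 2 was 0.19 (95% interval -0.41 to 0.79), and -0.12 without alone replicate 2. The 2 probes overlap by 43 bases at chr8:4137292-4137334 (minus strand) and are not identical there. The overlap is given in both, with the differing bases in capitals.
PSME2 probe 1: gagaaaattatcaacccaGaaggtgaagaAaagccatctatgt
PSME2 probe 2: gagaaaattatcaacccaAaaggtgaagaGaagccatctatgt
Counted from 1 at the 5′ end of the overlap, with the base of probe 1 first, the 2 differences are G19A and A30G. The part of these bases in the different readings was not tested.

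TAPBP, tapasin, was read at 2 places of one transcript. TAPBP probe 1 read 1425, 1364 and 1280 alone and 1446, 1253 and 1237 mixed, and the groups overlapped (log2 difference 0.02, 95% interval -0.23 to 0.26). TAPBP probe 2, printed on 5 spots of each array, read 1898, 1999 and 1993 alone and 2496, 2110 and 2237 mixed. The spots of one array differed by an SD of 0.037 to 0.076 on the log2 scale. On probe 2 the scaled values of the groups did not overlap, but the difference of 0.28 (SE 0.10) did not pass (limma adjusted p = 0.104). The 2 probes thus gave different sizes, and the difference between them was not tested.

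B2M, the light chain of every class I molecule, was bright on its 3 probes at the gene on chromosome 30. B2M probe 1 crosses a splice junction and read 62358, 54469 and 51891 alone and 59895, 58804 and 56298 mixed. B2M probe 2 read 72558, 63918 and 61439 alone and 71183, 68865 and 65096 mixed, and B2M probe 3 read 109438, 94910 and 89603 alone and 108213, 101295 and 93558 mixed. On all 3 the mixed arrays lay between alone replicate 1 and the other 2 alone arrays after scaling. The log2 differences were 0.12, 0.12 and 0.11, with 95% intervals of -0.14 to 0.39, -0.14 to 0.38 and -0.17 to 0.40. Without alone replicate 1, the log2 difference of B2M probe 1 was 0.24 (limma adjusted p = 0.0455). Probes 2 and 3 gave 0.23 and 0.24 under that omission and did not pass (limma adjusted p of 0.0537 and 0.0653).

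B2M probe 4 carries the name B2M through an expressed sequence tag but lies on chromosome 2, at chr2:19265122-19265181. It read 1759, 2230 and 1890 alone and 1329, 1368 and 1230 mixed. On the probes at the gene the groups overlapped, while on probe 4 the mixed arrays were lower without overlap. The log2 difference was -0.51 (SE 0.07, limma adjusted p = 0.0183), and it was called without alone replicate 1 or mixed replicate 1 but not without alone replicate 2 (0.0829), alone replicate 3 (0.0839), mixed replicate 2 (0.0820) or mixed replicate 3 (0.0901), nor with spike-in scaling (0.0679) or without the filter (0.0777). It is counted among the 19 probes because the name chose them, and it is not taken as a measure of B2M. Without it, 4 of 18 probes were called, all higher, and the median log2 difference was 0.27.

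The heavy chains that these genes serve did not pass the threshold in any probe. DLA-12 had 3 probes with log2 differences of -0.05 to 0.16, DLA-64 had 3 with -0.05 to -0.02, and DLA88 had 1 with 0.00. These genes are near copies of each other and their probes may share targets. Both DLA-79 probes were not well above background on any array. Over the list of heavy chains and peptide loading, 13 of 25 listed symbols were on the array and 22 probes were tested. Of these 2 were called higher and 1 lower, and the median log2 difference was -0.01, beside 0.00 over all tested probes. Over all tested probes, 5.50% were called higher and 5.72% lower.

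Both probes called higher belong to ERAP1, the aminopeptidase that trims peptides inside the endoplasmic reticulum. They read 116, 126 and 130 alone and 191, 177 and 182 mixed on the first, and 75.6, 79.8 and 81.2 alone and 107, 103 and 97.3 mixed on the second. The groups did not overlap on either. The log2 differences were 0.63 (SE 0.08, limma adjusted p = 0.0160) and 0.45 (SE 0.07, limma adjusted p = 0.0216). The limma adjusted p of the first became 0.0890 with spike-in scaling, and 0.0772, 0.0747, 0.0727 and 0.0860 on leaving out alone replicate 2, alone replicate 3, mixed replicate 2 and mixed replicate 3.

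Among the other loading genes, 1 probe was called. CALR, the chaperone calreticulin, had 1 of 3 probes called lower (log2 difference -0.31, limma adjusted p = 0.0426, and 0.0552 with the replicate block). The probes of CANX, PDIA3, NPEPPS, LNPEP and TPP2 lay between -0.19 and 0.13. TAPBPL, a relative of tapasin, had a log2 difference of 0.23 (limma adjusted p = 0.0763), with every mixed array above every alone array.

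Among 13 genes of class I transcription on the array, 31 probes were tested, 1 was called higher and 2 lower, beside 5.50% and 5.72% of all tested probes, and the median log2 difference was 0.08. IRF1, an interferon-responsive regulator of class I genes, read 195, 208 and 186 alone and 244, 207 and 161 mixed (log2 difference 0.10, limma adjusted p = 0.632).

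NFYA, a subunit of the CCAAT-binding factor at class I promoters, had both probes called lower (log2 differences -0.29 and -0.38, limma adjusted p of 0.0397 and 0.0324, and 0.0612 and 0.0446 with the replicate block). NFYC, its partner, had 1 of 4 probes called higher (0.40, limma adjusted p = 0.0447, and 0.0750 with the block). RFX5, RFXANK and RFXAP, which join NLRC5 at class I promoters, had log2 differences of -0.06 to 0.16 and were not called. JAK2, a kinase of the interferon-γ receptor, had -0.46 (limma adjusted p = 0.0954) and was called lower with the replicate block (0.0353).

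Of 10 tested probes for the constitutive subunits and assembly factors, PSME3 was the one called. It makes a different proteasome cap, found in the nucleus, and read 1654, 1841 and 1689 alone and 1174, 1345 and 1088 mixed (log2 difference -0.46, SE 0.08, limma adjusted p = 0.0217). The list's median log2 difference was -0.12. POMP, which assembles new proteasomes, had log2 differences of -0.23 and -0.17 and was not called. All calls among these pathway genes were lost on leaving out alone replicate 2, alone replicate 3, mixed replicate 2 or mixed replicate 3, with limma adjusted p of 0.0727 to 0.158. Leaving out mixed replicate 1 also ended those of CALR (0.0703), NFYA (0.0794 and 0.0625) and NFYC (0.0700).

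Markers were read on the same arrays, and in bulk samples fewer cells of a type and less RNA per cell cannot be told apart. The summed level of 12 epithelial marker probes was 9.78 to 9.97 alone and 9.85 to 9.98 mixed on the log2 scale, and none of the 10 tested was called. That sum rests mainly on the bright KRT8 and KRT18. CDH1, the adhesion protein E-cadherin, had log2 differences of -0.37, -0.36 and -0.16 on its 3 probes (limma adjusted p of 0.0648, 0.110 and 0.510), and without mixed replicate 1 the first 2 passed (0.0327 and 0.0414). Of 18 leukocyte marker probes, 5 were tested and none was called, and the defining markers PTPRC, MS4A1 and LYZ were not well above background on any array. Their summed level was -0.83 to -0.63 alone and -0.68 to -0.64 mixed. Of 14 Ras-MAPK output probes, 3 were called lower and none higher, beside 5.72% and 5.50% of all tested probes, with a median log2 difference of -0.33 and a summed level of 7.33 to 7.40 alone and 7.02 to 7.29 mixed. They were EPHA2 (log2 difference -0.71, limma adjusted p = 0.0242), FOSL1 (-0.52, limma adjusted p = 0.0193) and 1 of 2 probes of DUSP4 (-0.51, limma adjusted p = 0.0208). All 3 calls were lost on leaving out alone replicate 2, alone replicate 3, mixed replicate 2 or mixed replicate 3 (limma adjusted p of 0.0727 to 0.104), and those of EPHA2 and FOSL1 with spike-in scaling (0.0623 and 0.0706). Positive values were found on 4 of the 14 probes, and 1 of the 2 SPRED1 probes (0.39, limma adjusted p = 0.0567) was called higher with the replicate block (0.0491). The part of these genes in the differences above was not tested.

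The genes most like NLRC5 were sought over 25511 probes that were well above background on all 6 arrays, by the root mean square distance of the 6 log2 values after subtracting each probe's alone mean. The nearest named gene was MX1, an interferon-induced antiviral protein, at a distance of 0.23, with 3274, 1525 and 1747 alone and 5724, 9698 and 10497 mixed. CIITA, the class II counterpart of NLRC5, was at 0.25, with 70.5, 53.0 and 60.1 alone and 253, 383 and 381 mixed. CMPK2, SYT13 and TBC1D30 followed at 0.30, 0.32 and 0.39. In NLRC5, MX1 and CMPK2, alone replicate 1 stood well above the other 2 alone arrays. The nearness rests on 6 arrays, and a large step between the groups takes part in it.

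**Figure D4:**
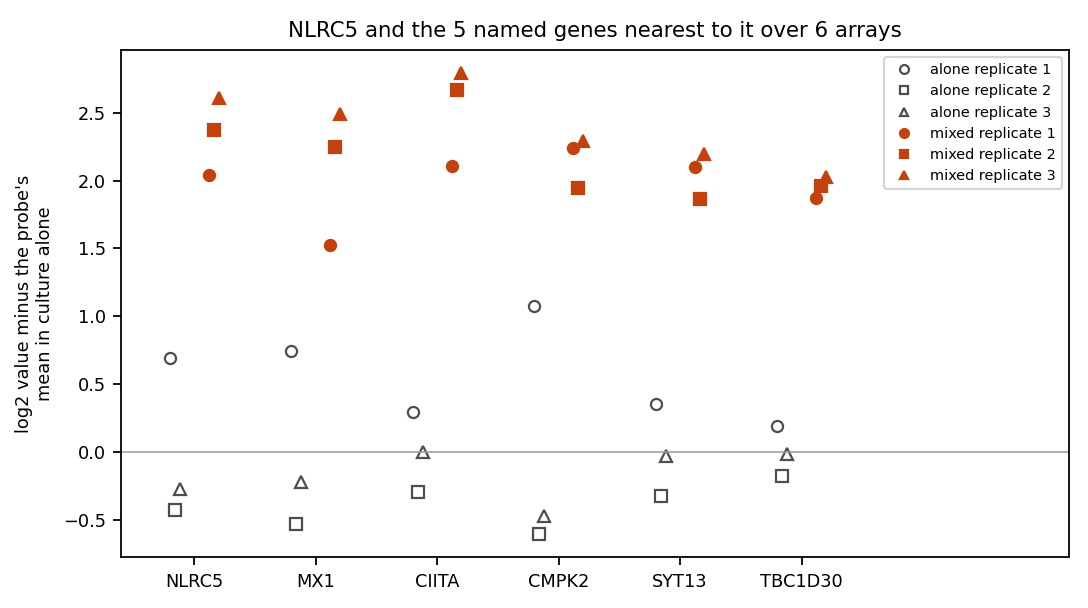
Each point is an array; the y axis is the log2 value minus the probe's mean in culture alone, for NLRC5 and the 5 named genes nearest to it. All 6 genes lie higher on every mixed array than on every alone array.

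How near the threshold the calls sat can be read from the adjusted p of NLRC5, TAP1, PSMB8, both PSMB9 probes and TAP2 probe 1 under each setting. B2M probe 4, which does not lie at its gene, is left out, and with the methods' t-test its adjusted p (0.0399) was below that of NLRC5 (0.0616). NLRC5 had the lowest adjusted p of these 6 in every setting but one. Under the replicate block PSMB8 was just below it (0.0342 against 0.0350).

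**Figure D5:**
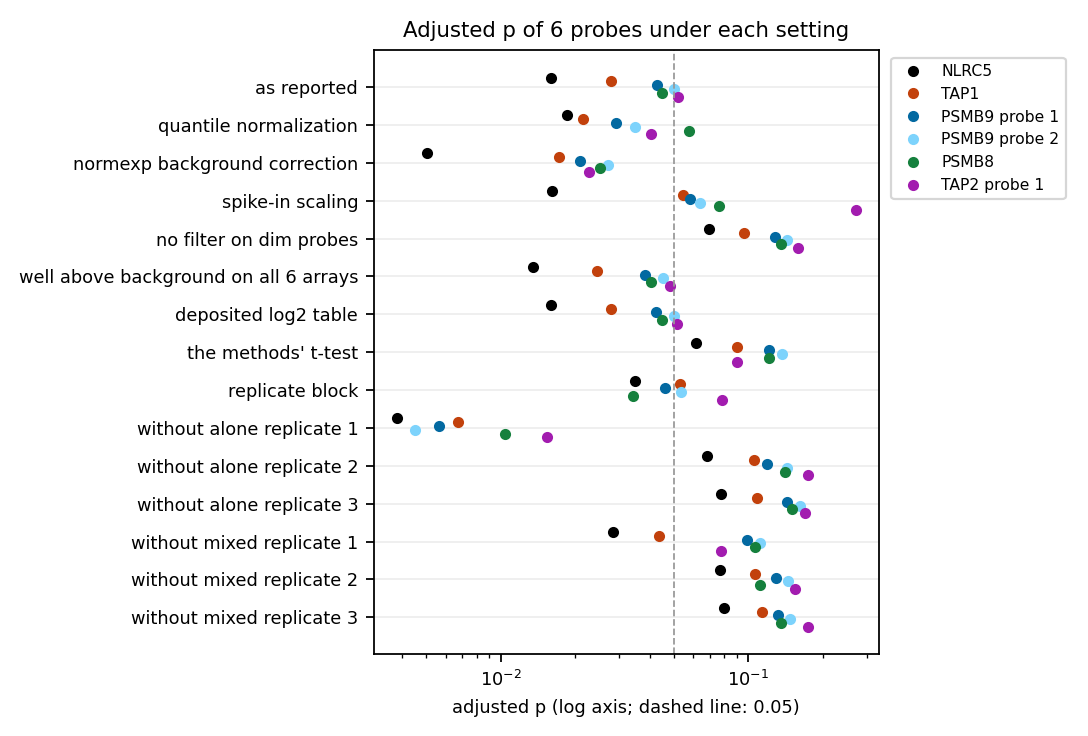
Each row is a setting and each point a probe; the x axis is the adjusted p on a log axis, with a dashed line at 0.05. Leaving out alone replicate 1 moves all 6 probes left of the line, and leaving out alone replicate 2, alone replicate 3, mixed replicate 2 or mixed replicate 3 moves all 6 right of it.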

How the data were processed

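RNA of 6 samples was hybridised to Agilent Canine (V2) 4x44K arrays, 1 colour (Cy3), and read with Feature Extraction 10.10.1.1. The authors deposited scanner files with an intensity per spot, already background-corrected and detrended, and a table of log2 values scaled to the 75th percentile. That table matched the scaled intensities on 26529 probes and was used as an alternative. Here control spots and outlier spots were left out, spots of a probe were averaged, and log2 was taken relative to the 75th percentile of each array. A probe was tested where all arrays of 1 group or of both had it well above background (26535 probes), two-sided, with limma 3.58.1 (R 4.3.3) and Benjamini-Hochberg adjustment at 0.05. The number of arrays limits the precision. In simulated data (26529 probes, 200 changed) the fit recovered 69% of 2-fold and 98% of 4-fold changes with 7 false calls. The simulated noise was independent between probes and between arrays. It held no difference between slides and no shift shared by the probes of an array, so these figures do not cover either.

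Groups came from the sample titles. The members, lists and tests were chosen with earlier results of these data known. Genes named are the members, list genes with a called probe or needed to account for a list, and the 5 nearest to NLRC5. DUSP4, KRT8 and NLRC5 were found by description. A gene of the class I transcription list is not reported here. Replicate numbers are shared by the groups. After removing group means, same-numbered arrays correlated at 0.349, 0.162 and 0.296, each over 0.1, although alone replicate 2 and mixed replicate 3 correlated at 0.238. The replicate number was therefore used as a block in an alternative, and the reported fit is unpaired. Same-numbered arrays also held the same position on their slides, so pairing and position cannot be told apart. Alternatives were quantile normalization, normexp (offset 50), spike-in scaling, other filters, the deposited table, the methods' t-test, the replicate block and leaving out each array. Gene order came from RefSeq (UU_Cfam_GSD_1.0), and no coordinates of that assembly are given. Promoters and proteins were not analysed here.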

Additional observations from a re-analysis of the deposited data

How the results depend on the processing

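The log2 differences of NLRC5, TAP1, TAP2, PSMB8, PSMB9, PSMB10, TAPBP probe 2 and B2M probe 4 kept their sign under all 14 alternatives, but the side of the threshold did not hold. The number of the 19 probes called higher (4 as reported) was 7 after normexp and 1 with spike-in scaling. It was 0 without a filter on dim probes and 0 with the methods' t-test. In that order, 11, 7, 11 and 11 of the 19 had an unadjusted p under 0.05 in either direction. The share of all tested probes under that limit was not counted, so these numbers do not set the members apart. The number called higher was 0 to 10 with an array left out (10 without alone replicate 1, 2 without mixed replicate 1, 0 without each of the other 4). The number called lower (1) was 0 with spike-in scaling and without the filter, and 0 to 1 with an array left out. Over all probes 2978 were called, against 603 with spike-in scaling, 12 without the filter, 826 with the methods' t-test and 7 to 7335 with an array left out (7335 without alone replicate 1). The cause of these shifts was not tested. Spike-in scaling moved the median log2 difference of all probes to -0.12. It reversed B2M probe 3 (-0.01), TAPBP probe 1 (-0.10), PSME1 probe 1 (-0.09) and PSME1 probe 2 (-0.02). Leaving out an array reversed TAPBP probe 1 (-0.05 to 0.09), PSME1 probe 1 (-0.01 to 0.11) and PSME2 probe 2 (-0.12 to 0.39).

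Of the heavy chain and loading probes, 2 higher and 1 lower became 0 and 0 with spike-in scaling and without the filter, and the lower call became 0 with the methods' t-test and with the replicate block. With an array left out, 0 to 2 were higher and 0 to 1 lower. Of the class I transcription probes, 1 higher became 3 after quantile normalization, 4 after normexp, 0 with spike-in scaling, 0 without the filter, 0 with the replicate block and 0 to 5 with an array left out. The 2 lower became 1 after normexp, 0 with spike-in scaling, 0 without the filter, 1 with the methods' t-test and 0 to 4 with an array left out. Of the constitutive and assembly probes, 1 lower became 2 after normexp, 0 with spike-in scaling, 0 without the filter, 2 with the methods' t-test and 0 to 2 with an array left out. With the replicate block, 3 of the 19 probes were called higher and 1 lower, and 2825 probes were called in all. Among the class I transcription probes it ended 1 call lower (NFYA) and brought 1 (JAK2). Among the member probes the block changed the call of TAP1 alone. The differences between inducible and constitutive subunits moved by less than their SD in all alternatives run for them. Slide as a block could not be run, since each slide holds 1 group.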

Other observations

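On canFam3, 40 other probes lie within 20000 bases of a probe at one of these genes, 30 of them were tested and 1 was called (3.33%), where 11.2% of all tested probes were. The called probe carries no gene name and lies on chromosome 30 beyond the last B2M probe, at chr30:11340826-11340885. It read 90.5, 109 and 81.9 alone and 142, 154 and 168 mixed, without overlap (log2 difference 0.80, SE 0.12, limma adjusted p = 0.0193), while the 3 probes at B2M gave 0.11 to 0.12. It was singled out after its values were seen.

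IRF9, an interferon regulatory factor that binds DNA, follows PSME2 and RNF31 on chromosome 8. Its 2 probes gave log2 differences of 0.35 (limma adjusted p = 0.0611) and -0.20 (limma adjusted p = 0.374), and neither was called. The 5 probes of CTRL, next to PSMB10, had log2 differences of -0.75 to -0.53 with none called, and on each of them alone replicate 1 was below the other 2 alone arrays. A further probe described as PSME2 by similarity, on chromosome 8, read 61.8, 126 and 117 alone and 60.4, 72.7 and 68.8 mixed (log2 difference -0.46, limma adjusted p = 0.238).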
